A study of Mus musculus with 235 samples.

Results

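The transcripts of 10 genes of the p53 network were followed among 27998 counted genes: Cdkn1a and Ccng1, chosen by their log2 fold change after dexamethasone in earlier results of these data, and Mdm2, Trp53, Trp53inp1, Trp53inp2, Sesn1, Zmat3, Btg2 and Gadd45a, taken by symbol. The question was whether the rise of Cdkn1a and Ccng1 was shared by other p53 targets, and how it differed between brain regions. The mice were adult C57Bl/6 males aged 3 months. Of 30 animals, 15 were injected intraperitoneally with dexamethasone, a synthetic agonist of the glucocorticoid receptor, at 10 mg/kg, and 15 with 0.9% saline as vehicle. After 4 h the brains were perfused, and 8 regions were punched from coronal sections. Their labels are PFC, PVN, AMY, CER, dDG, vDG, dCA1 and vCA1. No genotype other than the strain is given, and each library came from 1 region of 1 animal. Messenger RNA was counted from the 3′ end of transcripts in 118 vehicle and 117 dexamethasone libraries, with 13 to 15 libraries per region and arm.

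The protein p53, encoded by Trp53, is a transcription factor that is held at a low level by the ubiquitin ligase Mdm2. When p53 is stabilised, by DNA damage for example, it raises transcription of genes that stop the cell cycle, repair DNA or start cell death, and of Mdm2 itself, which closes a feedback loop. Several genes named as p53 targets also have other inputs: Cdkn1a is a known glucocorticoid-responsive gene, Sesn1 is also a FoxO target, and Btg2 is also an early response gene in neurons.

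Library totals ran from 268538 to 1451422 counts (median 742957). Levels are given as CPM, counts per 1000000 counts after trimmed mean of M values (TMM) scaling over all libraries. These are 3′ tag counts and are compared between groups, not between genes. If CER is read as cerebellum and dCA1 as a CA1 field, these labels were not matched by genes that define such tissue. In CER the cerebellar granule cell gene Gabra6 was at 0 counts in all 15 vehicle libraries, which allows 2.89 to 11.9 CPM in a library (3 counts, counting error only). The same gene was at 32.5 ± 73.5 CPM (SD, n = 15) in vehicle vDG and 18.4 ± 68.1 CPM (SD, n = 14) in vehicle vCA1, a spread wider than the mean. Prox1, a gene of dentate granule cells, was at 514 ± 140.0 CPM (SD, n = 15) in vehicle dCA1 and 455 ± 249 CPM (SD, n = 15) in dDG. Region names are therefore used as labels. RNA integrity was highest in PFC, with a mean of 7.75 in vehicle and 7.81 in dexamethasone libraries, against 5.69 to 6.69 in the other groups.

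The members are described by role. The regulatory pair is Trp53 (ENSMUSG00000059552, chromosome 11, 69580359 to 69591873, plus strand) and Mdm2 (ENSMUSG00000020184, chromosome 10, 117688888 to 117710758, minus strand). The cell cycle and growth genes are Cdkn1a (ENSMUSG00000023067, chromosome 17, 29090979 to 29100722, plus strand), which encodes the cyclin-dependent kinase inhibitor p21, and Ccng1 (ENSMUSG00000020326, chromosome 11, 40748552 to 40755311, minus strand), which encodes cyclin G1, a partner of protein phosphatase 2A that acts on Mdm2. Btg2 (ENSMUSG00000020423, chromosome 1, 134075170 to 134079120, minus strand) encodes an antiproliferative adaptor of the mRNA deadenylase complex. Gadd45a (ENSMUSG00000036390, chromosome 6, 67035096 to 67037457, minus strand) encodes a stress protein of growth arrest and DNA repair. Trp53inp1 (ENSMUSG00000028211, chromosome 4, 11156431 to 11174379, plus strand) encodes a p53-inducible stress protein with a role in autophagy, and Trp53inp2 (ENSMUSG00000038375, chromosome 2, 155381059 to 155389850, plus strand) a relative with a role in autophagy. Sesn1 (ENSMUSG00000038332, chromosome 10, 41810574 to 41908424, plus strand) encodes a sestrin, an inhibitor of mTORC1 signalling, and Zmat3 (ENSMUSG00000027663, chromosome 3, 32334792 to 32366014, minus strand) an RNA-binding zinc finger protein. Positions are from the count table on GRCm38, and counts refer to the exons between them. In none of the 10 did an exon overlap that of another gene.

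The sequence before the start site is shown for Cdkn1a and Ccng1, whose rise opened the question, and for Mdm2, the feedback target. Each is 250 bases up to the start site from RefSeq (GRCm38.p6), 5′ to 3′ on the gene's strand, with matches to the p53 half-site, a motif of 10 bases, in capitals. They lie at chr17:29090729-29090978 (plus), chr11:40755287-40755536 (minus) and chr10:117710759-117711008 (minus).
Cdkn1a: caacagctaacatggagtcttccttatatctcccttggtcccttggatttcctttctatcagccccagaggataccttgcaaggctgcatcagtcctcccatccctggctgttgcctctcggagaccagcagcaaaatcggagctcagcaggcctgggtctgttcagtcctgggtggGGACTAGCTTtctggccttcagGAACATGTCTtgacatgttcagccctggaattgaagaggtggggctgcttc
Ccng1: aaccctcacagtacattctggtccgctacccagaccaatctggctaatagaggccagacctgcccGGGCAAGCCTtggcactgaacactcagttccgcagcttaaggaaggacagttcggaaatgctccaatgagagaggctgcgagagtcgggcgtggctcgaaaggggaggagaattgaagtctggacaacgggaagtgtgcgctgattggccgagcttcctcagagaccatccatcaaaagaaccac
Mdm2: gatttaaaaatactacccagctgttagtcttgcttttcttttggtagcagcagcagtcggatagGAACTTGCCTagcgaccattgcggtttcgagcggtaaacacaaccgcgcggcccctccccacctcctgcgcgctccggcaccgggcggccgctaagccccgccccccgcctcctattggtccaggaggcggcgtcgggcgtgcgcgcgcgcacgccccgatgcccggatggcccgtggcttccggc
The Cdkn1a window held 2 half-sites, from 73 to 64 and from 51 to 42 bases before the start, with 12 bases between them. Ccng1 held 1, from 185 to 176 bases before the start, and Mdm2 held 1, from 186 to 177. The motif reads the same way on both strands, so each match counts once. Of 32851 RefSeq promoter windows of this length, 7.13% held at least 1 half-site and 0.259% at least 2. Windows were at hand for 8 of the 10 members, not for Trp53inp1 or Zmat3. Trp53, Gadd45a and the second of the start sites of Sesn1 also held 1 match each, and Trp53inp2, Btg2, the first start site of Sesn1 and the second of Cdkn1a held none. The glucocorticoid receptor half-site AGAACA, searched on both strands, was in 16.1% of all windows and in none of the members' windows, and its full site, named only, was in 0.00913% of all windows and in none of the members'. None of the printed matches overlapped another searched motif. A match is a description of letters, and its absence says only that these letters are not in this window.

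Cdkn1a was higher after dexamethasone in every region, by 3.92-fold in PFC to 12.2-fold in AMY between group means. In AMY it ranged from 25.1 to 99.9 CPM (median 38.0, n = 15) after vehicle and 275 to 875 CPM (median 564, n = 15) after dexamethasone. CER libraries ranged from 38.2 to 183 CPM (median 67.5, n = 15) after vehicle and 568 to 909.6 CPM (median 694, n = 15) after dexamethasone. PFC libraries ranged from 56.1 to 131 CPM (median 77.5, n = 15) after vehicle and 209.5 to 504 CPM (median 309.9, n = 14) after dexamethasone. In these 3 regions no dexamethasone library reached down to a vehicle library, and the PFC dexamethasone libraries were the lowest of the 3. PVN libraries ranged from 19.7 to 95.9 CPM (median 38.8, n = 14) after vehicle and 322 to 758 CPM (median 503, n = 15) after dexamethasone. In dCA1 the range was 10.3 to 100.3 CPM (median 37.2, n = 15) after vehicle and 226 to 561 CPM (median 350.3, n = 13) after dexamethasone. In dDG it was 25.1 to 77.5 CPM (median 39.9, n = 15) after vehicle and 203 to 571 CPM (median 324, n = 15) after dexamethasone. The arms again did not overlap in these 3 regions. In vCA1 the range was 15.0 to 63.4 CPM (median 30.7, n = 14) after vehicle and 198 to 544 CPM (median 336, n = 15) after dexamethasone. In vDG it was 12.4 to 84.5 CPM (median 47.7, n = 15) after vehicle and 226 to 727 CPM (median 396, n = 15) after dexamethasone. In 8 of 8 regions every dexamethasone library lay above the highest vehicle library, a pattern shown by 0.29% of all gene-and-region pairs tested. Fitted log2 fold changes ranged from 1.95 ± 0.11 (SE) in PFC to 3.59 ± 0.19 in AMY. These are descriptions with no test, since Cdkn1a was proposed for its rise. In these bulk punches, more or fewer cells of a type and more or less RNA per cell cannot be told apart.

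Ccng1 was also higher in every region, by 1.46-fold in PFC to 4.41-fold in CER between group means. In CER it ranged from 27.7 to 61.5 CPM (median 40.4, n = 15) after vehicle and 116 to 239.7 CPM (median 182, n = 15) after dexamethasone. AMY libraries ranged from 15.6 to 50.7 CPM (median 38.1, n = 15) after vehicle and 104 to 179 CPM (median 127, n = 15) after dexamethasone. PVN libraries ranged from 28.8 to 64.0 CPM (median 40.8, n = 14) after vehicle and 70.8 to 170.0 CPM (median 95.4, n = 15) after dexamethasone. In these 3 regions the arms were fully apart, as they were in vCA1, at 38.6 to 75.9 CPM (median 60.9, n = 14) after vehicle and 82.0 to 137 CPM (median 98.8, n = 15) after dexamethasone. In PFC the range was 41.6 to 112 CPM (median 70.9, n = 15) after vehicle and 68.0 to 120.2 CPM (median 97.2, n = 14) after dexamethasone, and 2 of 14 dexamethasone libraries lay above the highest vehicle library. The arms also overlapped in dDG, at 32.5 to 93.4 CPM (median 49.5, n = 15) after vehicle and 61.2 to 187 CPM (median 93.6, n = 15) after dexamethasone. In dCA1 the range was 33.8 to 74.2 CPM (median 48.3, n = 15) after vehicle and 63.0 to 125 CPM (median 83.5, n = 13) after dexamethasone. In vDG it was 39.0 to 71.0 CPM (median 51.2, n = 15) after vehicle and 63.4 to 160.1 CPM (median 119, n = 15) after dexamethasone. In dDG 8 of 15, in dCA1 10 of 13 and in vDG 14 of 15 dexamethasone libraries lay above the highest vehicle library. Log2 fold changes were 2.15 ± 0.11 (SE) in CER, 1.80 ± 0.12 in AMY, 1.41 ± 0.11 in PVN, 1.13 ± 0.11 in vDG, 0.88 ± 0.15 in dDG, 0.82 ± 0.11 in dCA1, 0.78 ± 0.11 in vCA1 and 0.55 ± 0.11 in PFC. These too are descriptions with no test. Within a punching date or a library plate with at least 2 libraries per arm, both Cdkn1a and Ccng1 were higher after dexamethasone in 32 of 32 region and date combinations and in 32 of 32 region and plate combinations.

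**Figure D1:**
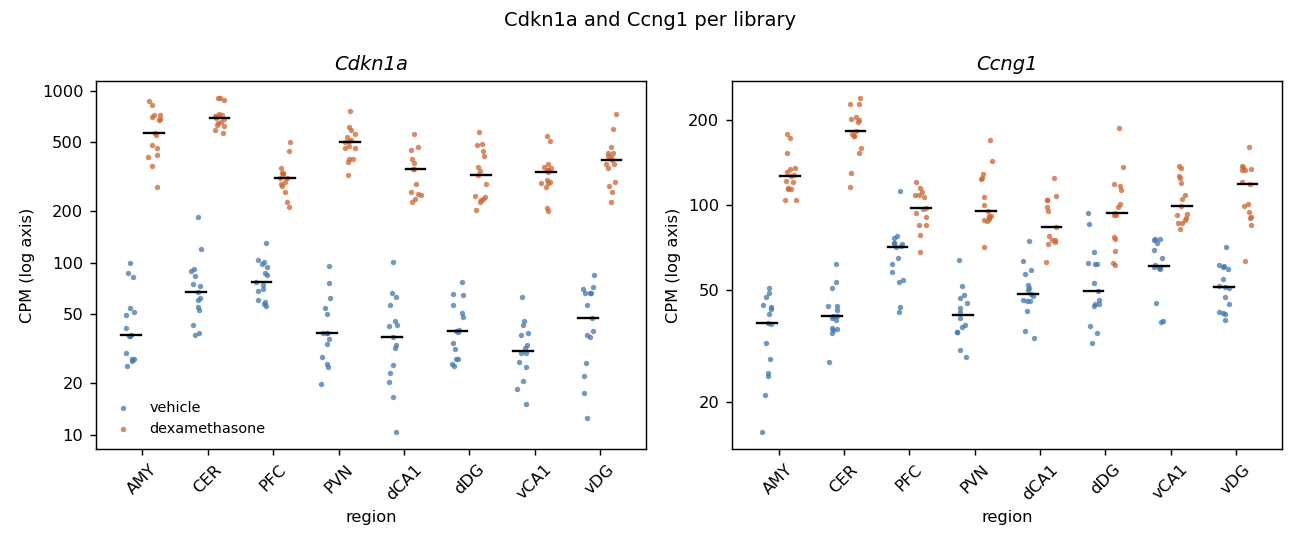
Levels of Cdkn1a and Ccng1 in CPM (log axis) per library, by region, with vehicle in blue, dexamethasone in orange and a black bar at each group's median. For Cdkn1a every dexamethasone library lies above every vehicle library of its region; for Ccng1 this holds in 4 of 8 regions, and the arms lie closest in PFC.

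Of the 8 other members, Trp53inp1, Sesn1 and Btg2 rose in at least 5 regions, and Trp53, Mdm2, Zmat3 and Trp53inp2 did not pass the test in any. Gadd45a entered the test in CER alone, through its high dexamethasone libraries, and is described apart. Across regions, 22 of 57 member-and-region tests passed as higher (edgeR quasi-likelihood test, Benjamini-Hochberg adjusted p under 0.05) and 0 as lower. Over all genes 3.23% of such tests passed as higher and 1.94% as lower. The median log2 fold change of the 57 tests was 0.16, and that of all genes lay between -0.016 and 0.0014 in each region. The 57 tests are those of 64 possible that passed the filter on low counts, and the 7 left out are all of Gadd45a. Without Gadd45a, 21 of 56 tests passed as higher and 0 as lower, with a median of 0.15. By region, again without it, 3 of 7 members rose in AMY, CER, PVN, vCA1 and vDG, and 2 of 7 in PFC, dCA1 and dDG, against 3.9% of all genes in CER, 3.54% in AMY, 3.57% in PVN, 3.41% in vCA1, 2.64% in vDG, 3.86% in PFC, 2.57% in dCA1 and 2.33% in dDG. The members were chosen with results known, so the counts describe this list.

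Trp53inp1 and Sesn1 rose in all 8 regions. Trp53inp1 ranged in vDG from 7.91 to 33.4 CPM (median 21.0, n = 15) after vehicle and 50.1 to 147 CPM (median 79.6, n = 15) after dexamethasone. In PFC it ranged from 8.47 to 34.0 CPM (median 14.2, n = 15) after vehicle and 40.6 to 77.8 CPM (median 63.0, n = 14) after dexamethasone. In CER the range was 6.36 to 39.2 CPM (median 26.0, n = 15) after vehicle and 45.7 to 76.3 CPM (median 56.0, n = 15) after dexamethasone. The vDG dexamethasone libraries reached highest of these 3 regions. AMY libraries ranged from 12.0 to 31.0 CPM (median 20.3, n = 15) after vehicle and 43.6 to 77.1 CPM (median 59.4, n = 15) after dexamethasone. PVN libraries ranged from 7.81 to 31.9 CPM (median 22.2, n = 14) after vehicle and 31.8 to 76.9 CPM (median 57.9, n = 15) after dexamethasone. In dCA1 the range was 11.7 to 43.8 CPM (median 19.4, n = 15) after vehicle and 50.4 to 98.5 CPM (median 60.0, n = 13) after dexamethasone. Of these, PVN was the region where the arms met. In dDG the range was 9.42 to 39.9 CPM (median 23.9, n = 15) after vehicle and 40.1 to 78.7 CPM (median 54.7, n = 15) after dexamethasone. In vCA1 it was 13.9 to 30.1 CPM (median 22.8, n = 14) after vehicle and 48.2 to 93.8 CPM (median 70.5, n = 15) after dexamethasone. The arms were apart in 7 of 8 regions, and in PVN 14 of 15 dexamethasone libraries lay above the highest vehicle library. Its log2 fold change was 1.90 ± 0.16 (SE, edgeR adjusted p 1.28e-10) in vDG, 1.87 ± 0.14 (2.03e-14) in PFC, 1.64 ± 0.13 in vCA1, 1.63 ± 0.15 in dCA1, 1.47 ± 0.13 in PVN, 1.45 ± 0.11 in AMY, 1.22 ± 0.14 in dDG and 1.16 ± 0.14 (2.10e-08) in CER. The largest adjusted p of the 8 was 9.24e-08. In vehicle libraries of PFC, the means of Cdkn1a and Ccng1 were at their highest, and their rise was smallest there, whereas Trp53inp1 had the lowest vehicle mean there and its second largest rise. Among regions, neither the vehicle level nor the response of Trp53inp1 passed (edgeR adjusted p 0.0775 and 0.0826), so these ranks are a description.

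Sesn1 rose by less. In CER it ranged from 28.5 to 52.0 CPM (median 42.5, n = 15) after vehicle and 60.4 to 110.2 CPM (median 68.9, n = 15) after dexamethasone, with no overlap. In dCA1 it ranged from 58.3 to 103 CPM (median 81.1, n = 15) after vehicle and 72.1 to 121 CPM (median 104, n = 13) after dexamethasone, and 7 of 13 dexamethasone libraries lay above the highest vehicle library. In vDG it ranged from 37.1 to 93.4 CPM (median 65.8, n = 15) after vehicle and 84.1 to 139 CPM (median 118, n = 15) after dexamethasone, and in PFC from 47.0 to 74.2 CPM (median 55.2, n = 15) after vehicle and 73.2 to 124 CPM (median 97.5, n = 14) after dexamethasone. All but 1 dexamethasone library in each of these lay above the highest vehicle library. In vCA1 it ranged from 35.2 to 78.6 CPM (median 50.4, n = 14) after vehicle and 50.8 to 109.7 CPM (median 90.6, n = 15) after dexamethasone, with 13 of 15 above. In AMY, PVN and dDG 7, 5 and 2 of 15 dexamethasone libraries lay above the highest vehicle library. Log2 fold changes ran from 0.33 ± 0.092 (SE, edgeR adjusted p 0.0238) in dCA1 to 0.82 ± 0.10 (2.58e-08) in CER. Values in the other regions were 0.41 in PVN, 0.45 in dDG, 0.49 in AMY, 0.75 in PFC and 0.76 in vCA1 and vDG.

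Btg2 rose in 5 of 8 regions. In CER it ranged from 3.18 to 20.0 CPM (median 9.32, n = 15) after vehicle and 7.74 to 31.6 CPM (median 21.4, n = 15) after dexamethasone, and 10 of 15 dexamethasone libraries lay above the highest vehicle library. In dCA1 it ranged from 19.6 to 43.4 CPM (median 27.9, n = 15) after vehicle and 15.1 to 47.8 CPM (median 29.5, n = 13) after dexamethasone, and the arms overlapped almost fully. In vCA1 it ranged from 6.35 to 28.3 CPM (median 16.7, n = 14) after vehicle and 16.8 to 78.7 CPM (median 25.4, n = 15) after dexamethasone, with 6 of 15 above the highest vehicle library. In PVN it ranged from 8.32 to 25.0 CPM (median 13.0, n = 14) after vehicle and 10.6 to 53.1 CPM (median 21.5, n = 15) after dexamethasone, with 5 of 15 above. In AMY 3 and in vDG 5 of 15 were above, so the arms overlapped in each region. The log2 fold change was 0.97 ± 0.19 (SE, edgeR adjusted p 3.71e-04) in CER, 0.78 ± 0.20 (0.0119) in vCA1, 0.70 ± 0.18 (0.00759) in PVN, 0.64 ± 0.17 (0.0121) in AMY and 0.63 ± 0.15 (0.00719) in vDG. It was 0.49 ± 0.17 (0.128) in dDG, 0.32 ± 0.17 (0.409) in PFC and 0.11 ± 0.14 (0.881) in dCA1, which did not pass. With surrogate variables dDG passed (0.49, adjusted p 0.0275), as it did with the replicate number as a block. In vCA1 the call was lost with surrogate variables (0.53, adjusted p 0.0768) and with the level of dentate granule cell genes as a covariate (0.74, adjusted p 0.104). With the dentate covariate, calls over all vCA1 genes also fell, from 497 to 278 of 9126. The part of dentate tissue in the Btg2 value was not tested.

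Gadd45a passed the filter on low counts in CER alone, the region in which its dexamethasone libraries were highest, so that passing the filter and rising are not independent there. In CER it ranged from 3.86 to 20.7 CPM (median 12.9, n = 15) after vehicle and 23.7 to 56.6 CPM (median 40.0, n = 15) after dexamethasone, with no overlap. Its log2 fold change there, 1.79 ± 0.17 (SE), is given as a description. With no filter on low counts, where every region was tested, edgeR called it higher in 3 of 8 regions, at 1.79 ± 0.17 in CER (adjusted p 3.07e-11), 1.52 ± 0.26 in AMY (adjusted p 7.12e-05) and 0.89 ± 0.28 in PFC (adjusted p 0.0483). In AMY it ranged from 1.33 to 10.7 CPM (median 6.45, n = 15) after vehicle and 5.37 to 38.2 CPM (median 16.7, n = 15) after dexamethasone. In vCA1 it ranged from 3.09 to 13.2 CPM (median 7.88, n = 14) after vehicle and 1.64 to 19.6 CPM (median 7.75, n = 15) after dexamethasone, with a log2 value of 0.26 ± 0.25 (adjusted p 0.683). Within punching dates and within plates, the dexamethasone mean was the higher in 32 and 32 of 32 combinations for Trp53inp1, 32 and 31 for Sesn1, 30 and 29 for Btg2, and 27 and 28 for Gadd45a.

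**Figure D2:**
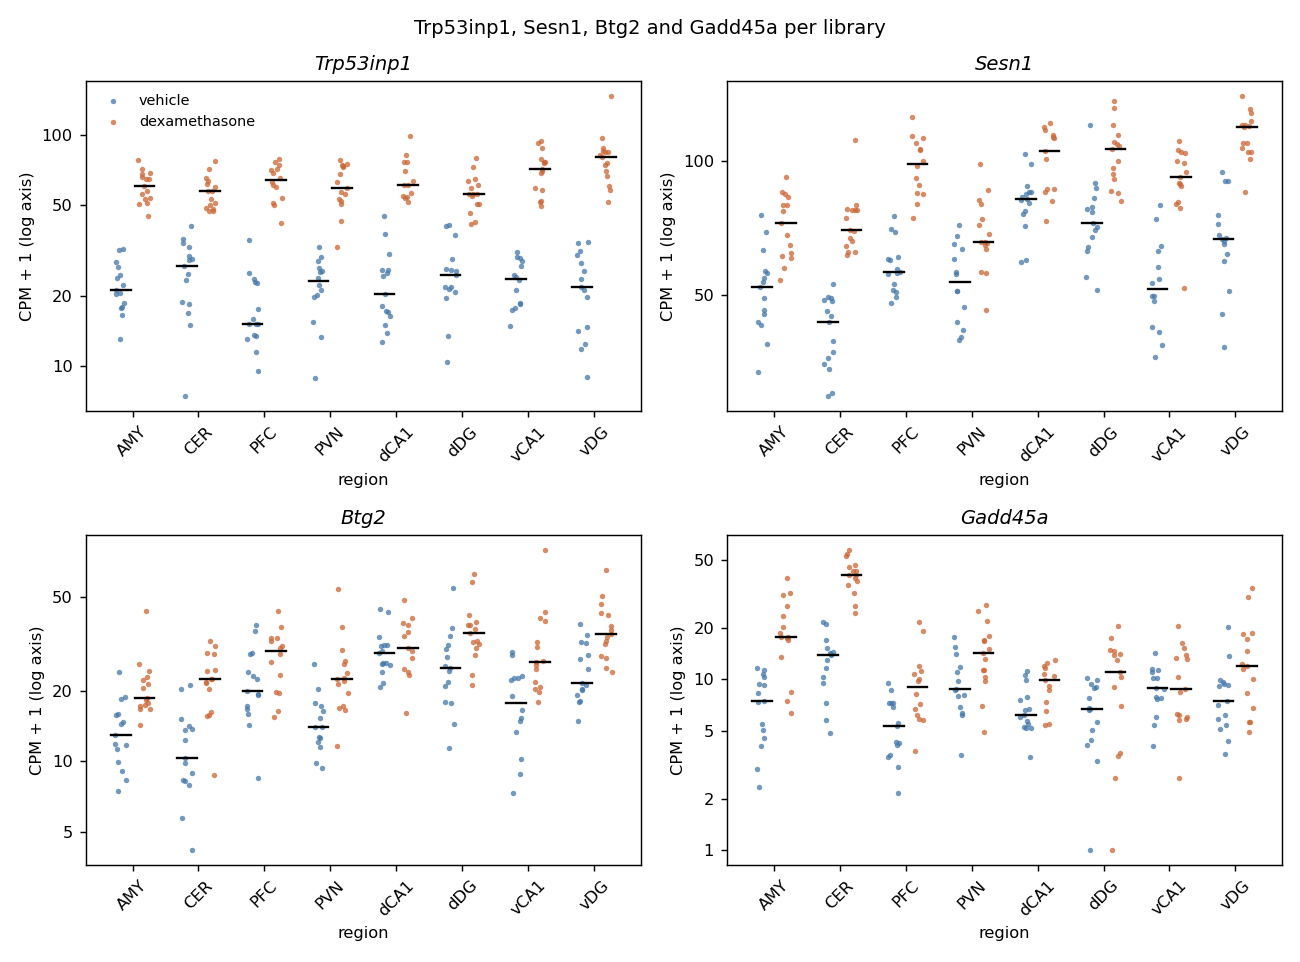
Levels of Trp53inp1, Sesn1, Btg2 and Gadd45a as CPM + 1 (log axis) per library, by region, with vehicle in blue, dexamethasone in orange and a black bar at each group's median. Trp53inp1 separates the arms in 7 of 8 regions, Sesn1 and Gadd45a in CER, and Btg2 in none.

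Trp53, Mdm2, Zmat3 and Trp53inp2 passed in 0 of 8 regions by edgeR. At an unadjusted p under 0.05 only Mdm2 in dDG passed among their 32 tests. DESeq2, limma on the deposited transformed values and the other settings run gave 0 calls for these 4 genes, the smallest adjusted p being 0.0946, with the replicate block. In dDG, Mdm2 ranged from 46.7 to 103 CPM (median 73.3, n = 15) after vehicle and 59.9 to 114 CPM (median 88.1, n = 15) after dexamethasone, with a log2 fold change of 0.25 ± 0.10 (SE, edgeR adjusted p 0.216). Over the 8 regions Mdm2 lay between -0.026 and 0.25, above 0 in 7, and within punching dates and plates its dexamethasone mean was the higher in 25 and 24 of 32 combinations. Trp53 lay between -0.19 and 0.13. In AMY it ranged from 6.97 to 33.8 CPM (median 19.1, n = 15) after vehicle and 11.2 to 22.1 CPM (median 16.4, n = 15) after dexamethasone. Zmat3 lay between -0.098 and 0.082, and in CER it ranged from 149.5 to 254 CPM (median 203, n = 15) after vehicle and 150.2 to 255 CPM (median 199.7, n = 15) after dexamethasone. Trp53inp2 lay between -0.035 and 0.16, and in CER it ranged from 178 to 349 CPM (median 306, n = 15) after vehicle and 238 to 375 CPM (median 315, n = 15) after dexamethasone. For Zmat3 the standard errors ran from 0.069 (PVN) to 0.15 (dDG), and for Trp53 from 0.15 (vCA1) to 0.22 (PFC). Changes of the order of these errors were not detectable at this depth.

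**Figure D3:**
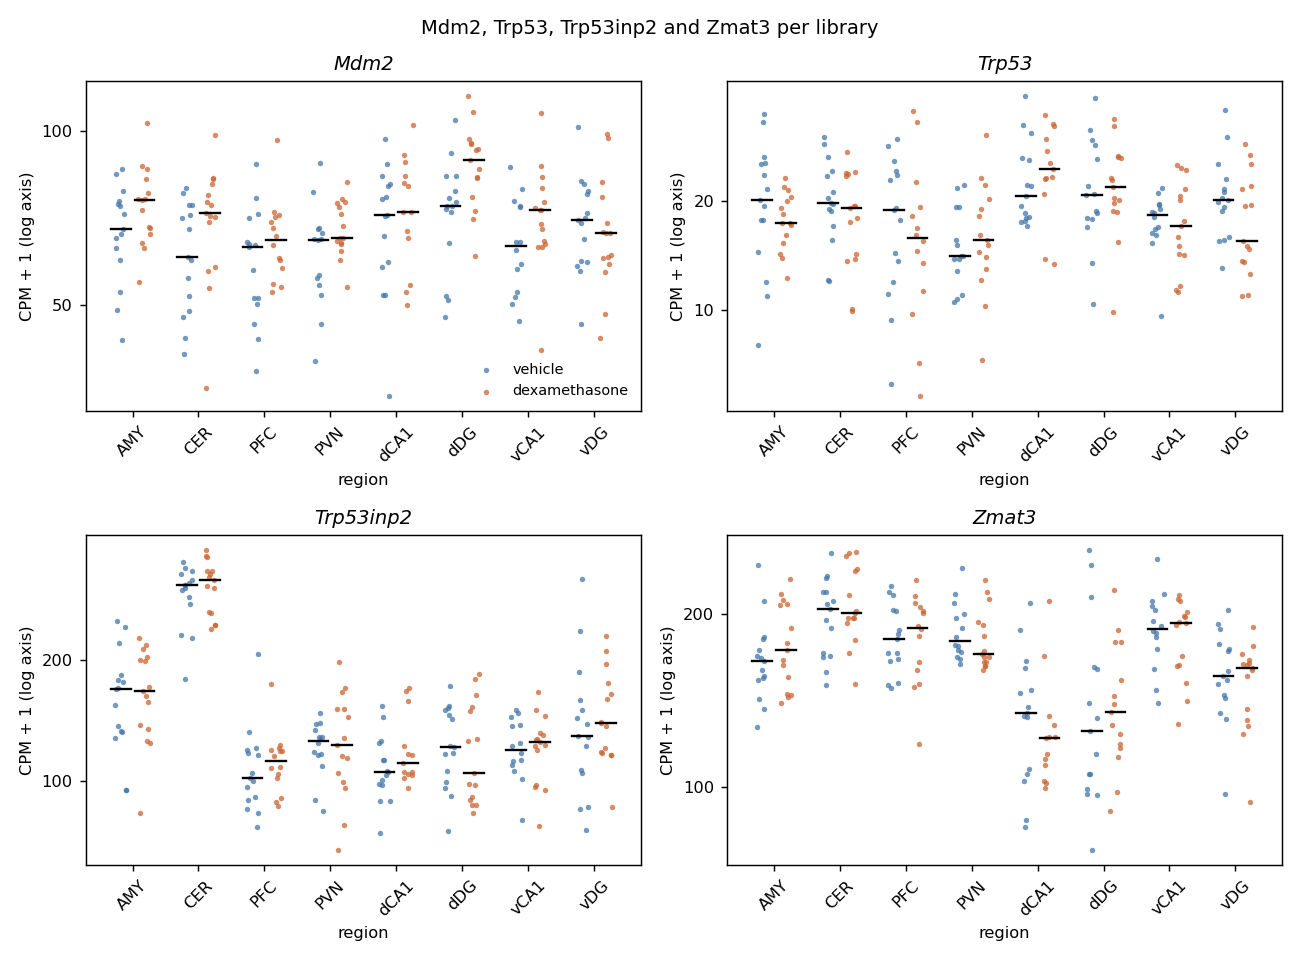
Levels of Mdm2, Trp53, Trp53inp2 and Zmat3 as CPM + 1 (log axis) per library, by region, with vehicle in blue, dexamethasone in orange and a black bar at each group's median. The arms overlap in all 8 regions for all 4 genes.

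A list of 31 further p53 targets was counted in the same fits. Of these, 17 were tested in at least 1 region, and 12 of 113 gene-and-region tests passed as higher and 0 as lower, with a median log2 fold change of 0.054, against 3.23% of all tests as higher and 1.94% as lower. The 12 calls came from 4 genes. Of these, Pmaip1, which encodes the cell death protein Noxa, passed the filter in 3 regions, through its dexamethasone libraries. Without it 9 of 110 tests passed as higher and 0 as lower, with a median of 0.047. Fitted log2 values of Pmaip1, given as a description, were 3.21 ± 0.25 (SE) in AMY, 2.97 ± 0.28 in CER and 2.83 ± 0.22 in PVN. In AMY Pmaip1 ranged from 0 to 8.13 CPM (median 2.38, n = 15) after vehicle and 10.4 to 43.0 CPM (median 27.2, n = 15) after dexamethasone. With no filter edgeR called it higher in 8 of 8 regions, the smallest value being 1.68 ± 0.26 in PFC (adjusted p 3.20e-06). Apaf1, an adaptor of caspase activation, rose in PFC, dDG, vCA1 and vDG, by 0.60 to 0.82, and its value in CER was -0.0082. Bcl6, a transcriptional repressor, rose in AMY, PFC, PVN and dDG, by 0.35 to 1.01. In PVN Bcl6 ranged from 17.6 to 47.0 CPM (median 36.2, n = 14) after vehicle and 55.6 to 82.5 CPM (median 66.2, n = 15) after dexamethasone, with no overlap. Rrm2b, a subunit of ribonucleotide reductase, rose in CER alone, by 0.56 ± 0.13 (adjusted p 0.00375). Pmaip1 and Rrm2b were named after their values were seen. The other 13 tested genes passed in no region, and 14 listed genes were below the filter everywhere.

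**Figure D4:**
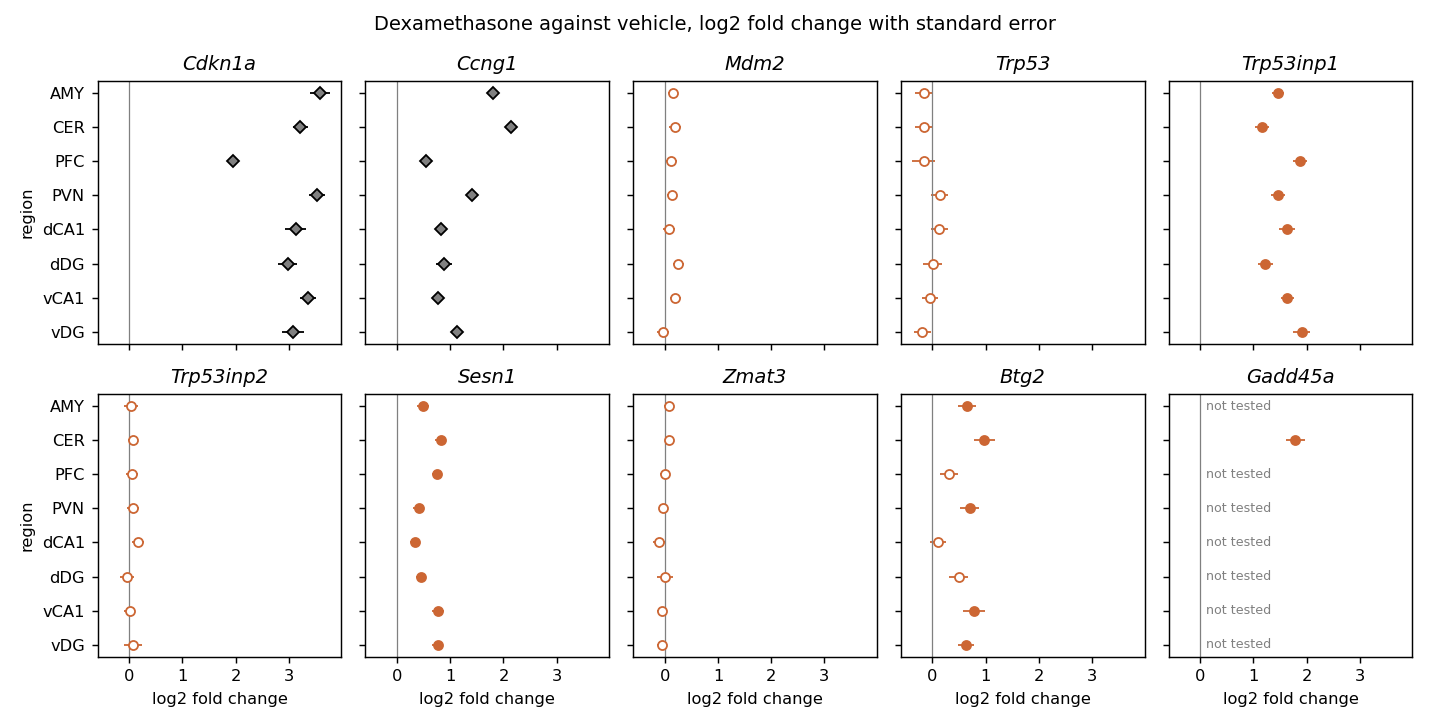
Log2 fold change of dexamethasone against vehicle with its standard error, for the 10 members (panels) in the 8 regions (rows). Filled circles passed an adjusted p of 0.05, open circles did not, grey diamonds mark Cdkn1a and Ccng1, which are described without a test, and Gadd45a entered the test in CER alone, through its high dexamethasone libraries.

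Markers of microglia and endothelium moved with the treatment: 2 of the 5 or 6 tested microglial markers (Cx3cr1 and P2ry12) and 2 of the 3 endothelial markers that passed the filter, of 6 listed (Flt1 and Slco1a4), were lower after dexamethasone in each of the 8 regions. The median summed level over regions was 262 to 522 CPM after vehicle and 158 to 300.0 CPM after dexamethasone for microglia, and 276 to 379 against 171 to 231 CPM for endothelium. None of the 6 neuronal markers passed in any region, and of the 5 oligodendrocyte markers 1 (Mog) was lower, in AMY. In dCA1 the astrocyte markers Aldh1l1 (0.72, edgeR adjusted p 0.0174) and Aqp4 (-0.44, adjusted p 0.0491) passed in opposite directions, and in vCA1 the choroid plexus marker Ttr was lower (-2.27, adjusted p 0.00692). The part of these cells in the members' values was not tested.

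Whether the response differed between regions was tested in 1 fit over all libraries. Cdkn1a and Ccng1 were chosen by their log2 fold change in these data, so their F values are not independent of that choice. The response of 4 of 10 members differed among the 8 regions, against 1.17% of 11053 genes. The F statistic on 7 interaction terms was 21.1 for Ccng1 (edgeR adjusted p 2.17e-18), 8.27 for Cdkn1a (4.11e-06), 4.56 for Gadd45a (0.0124) and 3.99 for Sesn1 (0.0358). Gadd45a is in this fit through its high dexamethasone libraries, and without it 3 of 9 members passed. With no filter on low counts Gadd45a was at 4.61 (adjusted p 0.0206), and Sesn1 missed the threshold (adjusted p 0.0847). Trp53inp1 missed it at 3.56 (adjusted p 0.0826) and passed with the animal as a replicate block (3.87, adjusted p 0.0461). Btg2 was at 2.24 (adjusted p 0.592), and Mdm2, Trp53, Trp53inp2 and Zmat3 lay between 0.193 and 0.682 (adjusted p 0.9999 each).

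Regions were then compared in pairs, where 0.135% of all gene-and-pair tests passed, and 0 to 0.597% of genes in a single pair. For Cdkn1a 5 of 28 pairs passed, and all 5 set PFC, the lower, against another region. The log2 response in PFC minus that in AMY was -1.63 (SE 0.25, edgeR adjusted p 1.83e-06), and minus that in CER it was -1.26 (adjusted p 4.67e-04). The responses in PVN, vCA1 and dCA1 exceeded that in PFC by 1.57, 1.40 and 1.18 on the log2 scale. RNA integrity was also highest in PFC. With integrity as a covariate the F statistic of Cdkn1a was 8.37. That covariate had no product with the arm, so whether the response depends on integrity was not tested. In PFC, region and integrity cannot be told apart. For Ccng1 11 of 28 pairs passed. The response in CER exceeded that in 6 regions, all but AMY, and the other region minus CER ran from -0.75 (PVN) to -1.59 (PFC). The response in AMY exceeded those in 4 regions, and the other region minus AMY was -1.26 in PFC, -1.03 in vCA1, -0.98 in dCA1 and -0.92 in dDG. The response in PVN exceeded that in PFC by 0.85. The Gadd45a response in vCA1 minus that in CER was -1.52 (SE 0.34), given as a description, since CER is the region through which it passed the filter. No pair passed for Sesn1 or the other 6 members, so the data do not say which regions set the Sesn1 difference.

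Of the members, Ccng1 had the response most closely aligned with the regions' oligodendrocyte marker level. The summed level of 5 myelin genes (Mbp, Mog, Mag, Cnp, Mobp) had a median in vehicle libraries of 8160.0 CPM in CER, 5150.0 in AMY, 3020.0 in PVN, 2890.0 in vDG, 2490.0 in vCA1, 2300.0 in dDG, 1710.0 in dCA1 and 1190.0 in PFC. Across these 8 regions the correlation with the log2 fold change was 0.96 (Pearson) and 0.929 (Spearman) for Ccng1, the highest of 63 pairs of a member and a marker list, the next being 0.803. For Cdkn1a Pearson's r was 0.655 and for Trp53inp1 -0.638. Points share the vehicle libraries of both measures, and with 8 regions the values are given as a description. Within groups of the same region and arm, libraries were compared in the same way. Over the 117 dexamethasone libraries the oligodendrocyte level had an r of 0.691 with Cdkn1a, 0.685 with Trp53inp2, 0.638 with Gadd45a and 0.461 with Ccng1, the 4 highest of 70 pairs, and the fifth was 0.433. Over the 118 vehicle libraries the values for the same genes were 0.184, 0.783, 0.0821 and 0.231. Libraries share depth and dissection, and the difference between the arms was not tested.

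The interaction was fitted again with the log2 oligodendrocyte level and its product with the arm as covariates, an alternative chosen after these values were seen. The F of Ccng1 went from 21.1 to 6.64 (edgeR adjusted p 3.99e-04) and that of Cdkn1a from 8.27 to 7.09 (adjusted p 1.74e-04). Gadd45a was at 1.20 (adjusted p 0.9999) and Sesn1 was at 3.86 (adjusted p 0.0790), so that 2 of 10 members passed. The share of all genes that passed in this fit is not given here. The oligodendrocyte level differed by region, so these covariates overlap with the interaction terms. The part of oligodendrocytes in the regional differences was not tested.

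**Figure D5:**
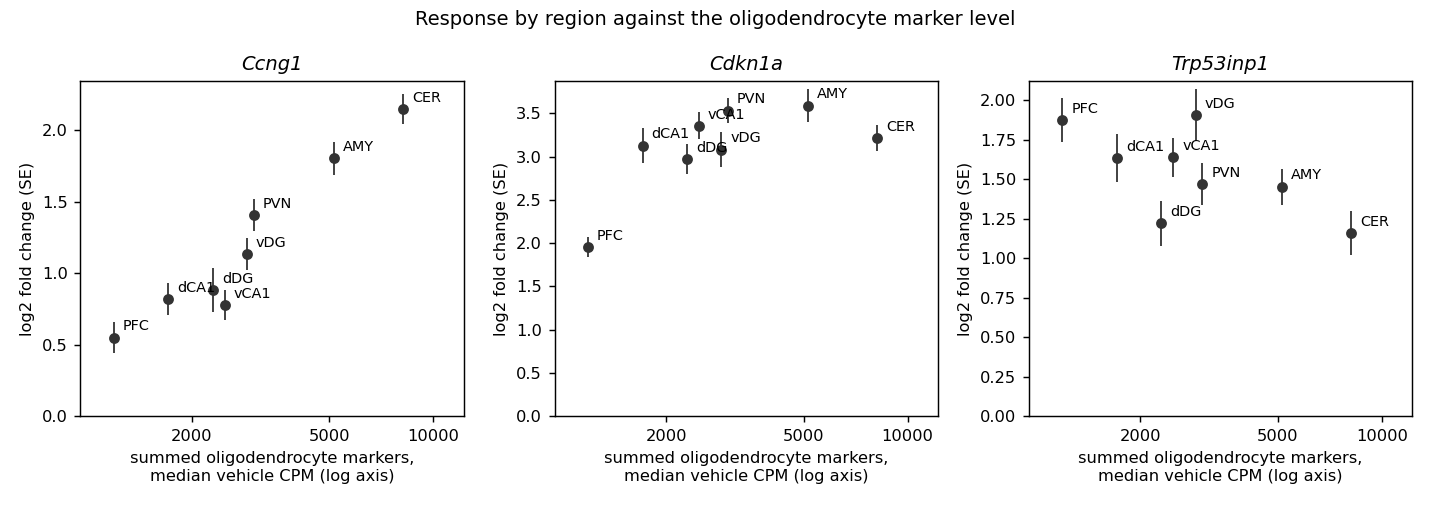
Log2 fold change (standard error) of Ccng1, Cdkn1a and Trp53inp1 in the 8 regions against the median summed level of 5 oligodendrocyte marker genes in vehicle libraries (CPM, log axis). Ccng1 runs from PFC, lowest on both axes, to CER, highest on both, while PFC stands below the other regions for Cdkn1a and CER is lowest for Trp53inp1.

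Vehicle levels were compared between regions with the animal as a block. They differed for 7 of the 9 members tested, all but Mdm2 (edgeR adjusted p 0.123) and Trp53inp1 (0.0775), against 73.3% of all genes, so that the share is near the background. Gadd45a was below the filter. Cdkn1a means were 81.6 ± 21.2 CPM in PFC, 75.7 ± 37.1 CPM in CER, 48.2 ± 22.6 CPM in vDG, 47.8 ± 23.9 CPM in AMY, 44.5 ± 21.5 CPM in PVN, 43.7 ± 16.5 CPM in dDG, 41.0 ± 23.4 CPM in dCA1, 32.8 ± 12.7 CPM in vCA1 (SD, n = 14 or 15). The first 2 did not differ beyond their spread (adjusted p 0.266), CER exceeded vDG (5.26e-05), and no later neighbours in this order differed. For Ccng1 the means were 66.9 ± 17.0 CPM in PFC, 61.2 ± 12.8 CPM in vCA1, 54.6 ± 17.8 CPM in dDG, 51.7 ± 9.40 CPM in vDG, 50.1 ± 10.3 CPM in dCA1, 41.8 ± 8.29 CPM in CER, 41.8 ± 9.11 CPM in PVN, 36.1 ± 10.8 CPM in AMY, and no neighbours differed, the closest to the threshold being dCA1 and CER (adjusted p 0.0606). In all, 14 of 28 pairs of regions passed for Cdkn1a and 16 for Ccng1, against 31.4% of all gene-and-pair tests. Of the others, Trp53inp2 was highest in CER, at 292 ± 46.8 CPM, above AMY at 164 ± 47.1 CPM (adjusted p 5.53e-09). Sesn1 ran from 79.9 ± 11.8 CPM in dCA1 to 40.6 ± 7.59 CPM in CER, and CER differed from its neighbour AMY (adjusted p 0.0197). Btg2 had the same ends, 28.6 ± 6.86 CPM in dCA1 and 10.6 ± 4.86 CPM in CER. Trp53 ran from 22.0 ± 6.62 CPM in dCA1 to 14.3 ± 3.88 CPM in PVN.

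Members were last compared across the 30 animals, as the mean over an animal's regions of log2 CPM (prior count 2) after subtracting the mean of each region and arm, which removes the treatment difference. Of 9 members correlated with Cdkn1a, 1 passed by Pearson's r (Trp53inp1) and 3 by Spearman's rho (Trp53inp1, Ccng1 and Trp53inp2). Trp53inp1 had a Pearson r of 0.611 (permutation p 0.00048, adjusted 0.00432) and a Spearman rho of 0.472 (permutation p 0.00901, adjusted 0.0327). Without the 2 animals farthest from the Cdkn1a median r was 0.438. Within the 4 punching dates with at least 6 animals r was 0.362, 0.795, 0.818 and 0.754. It was 0.685 in the 15 vehicle animals (permutation p adjusted 0.0372) and 0.203 in the 15 dexamethasone animals (permutation p adjusted 0.702). The difference between these values was not tested. Ccng1 had an r of 0.451 (permutation p adjusted 0.0576) and a rho of 0.463 (permutation p adjusted 0.0327). Trp53inp2 had an r of 0.358 (permutation p adjusted 0.117) and a rho of 0.485 (permutation p adjusted 0.0327). Within the same 4 punching dates its r changed sign, at -0.822, 0.848, 0.594 and 0.515. The other 6 ranged in r from -0.326 (Trp53) to 0.371 (Sesn1), with adjusted permutation p from 0.117 to 0.737. Centred within punching date, which left 29 animals, Sesn1 also passed by Pearson's r, with an r of 0.554 (permutation p adjusted 0.00922), beside Trp53inp1 at 0.685 (permutation p adjusted 0.00099). In the dexamethasone animals alone Trp53inp2 (r 0.735, permutation p adjusted 0.00747) and Zmat3 (r 0.645, permutation p adjusted 0.0425) passed by Pearson's r, and in the vehicle animals they were at 0.223 and 0.186 (permutation p adjusted 0.632 and 0.652). Their difference between arms was not tested either. The permutations within 1 arm did not keep animals within punching dates. Centred within punching date over both arms, r was 0.224 for Trp53inp2 and 0.167 for Zmat3 (permutation p adjusted 0.439 and 0.5).

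Among 7923 genes ranked by their correlation with Cdkn1a over all libraries, after the mean of each region and arm was subtracted, the most alike were Sgk1 (r 0.528), Tsc22d3 (0.524), Adipor2 (0.508), Rhou (0.483) and Mt2 (0.48). Of the members, Trp53inp2 ranked highest, at 99 (0.331), then Ccng1 at 240 (0.274) and Trp53inp1 at 317 (0.25), while Mdm2 (-0.161) ranked 6947 and Trp53 (-0.165) 7000. For Ccng1 the most alike were Atp1b3 (0.491), Slc12a2 (0.479), Laptm4b (0.452), Qdpr (0.449) and Car2 (0.438). Split by arm, the 5 in the same order had an r with Ccng1 of 0.422, 0.351, 0.478, 0.327 and 0.337 over the vehicle libraries and 0.565, 0.635, 0.424, 0.581 and 0.576 over the dexamethasone libraries. The 5 genes most alike to Cdkn1a, in the order given, were at 0.528, 0.578, 0.47, 0.429 and 0.507 over the vehicle libraries and 0.532, 0.375, 0.593, 0.596 and 0.422 over the dexamethasone libraries. Differences between arms were not tested. These are descriptions over libraries that share animals and depth.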

How the data were processed

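Messenger RNA was counted in 118 vehicle and 117 dexamethasone libraries. Per the submitters' processing notes, reads were handled with FastQC 0.11.4, cutadapt, UMI-tools 0.5.4, STAR 2.6.0a and featureCounts 1.6.4 on mm10; strand setting and annotation are not given in the sources used here. The deposited table holds raw counts for 27998 genes, and the authors' deposited transformed values are on a log2 scale for 228 libraries, with DESeq2 1.30.1 in the submitters' processing notes. Of 27722 shared genes, 99.9% overlapped their GRCm38 annotation. Arms were compared per region with edgeR 4.0.16 (R 4.3.3): TMM factors, filterByExpr on low counts, quasi-likelihood test, Benjamini-Hochberg adjustment over all genes, threshold 0.05. CPM levels used 1 TMM scaling over all libraries, and covariation used 100000 permutations. Alternatives used DESeq2 1.42.0, limma 3.58.1 and sva 3.50.0; the test was also tested on simulated data. The members and lists were chosen with earlier results of these data known. Limma on the deposited values, the oligodendrocyte covariates and library totals over all genes were alternatives chosen after seeing the data; the last was run first and replaced as the setting reported, and changed no count of members. Named were all members, relatives of the members, genes of the other lists past the threshold in at least 4 regions, and for Cdkn1a and Ccng1 the 5 most alike genes of at least 10 CPM; others are marked as named after their values were seen. Of the lists, 1 further target and 1 oligodendrocyte marker are not reported here and enter no count or sum. Replicate numbers were taken as pairs through the labels: same-numbered libraries shared a plate in 115 of 115 pairs and a punching date for 14 of 15 numbers (4 plates, 5 dates), and their median correlation by region was 0.0464 to 0.215.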

Additional observations from a re-analysis of the deposited data

Results flagged for a closer look

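The response to dexamethasone differed among the 8 regions for 4 of the members by the test of the difference itself (edgeR F test of 7 interaction terms). The F statistic was 21.1 for Ccng1, 8.27 for Cdkn1a, 4.56 for Gadd45a and 3.99 for Sesn1. Ccng1 and Cdkn1a were chosen by their log2 fold change in these data. Gadd45a passed the filter on low counts through its high dexamethasone libraries, and with no filter its F was 4.61. With oligodendrocyte covariates it was 1.20 (adjusted p 0.9999). Sesn1 missed the threshold with no filter (adjusted p 0.0847) and with those covariates (adjusted p 0.0790). For Ccng1 the regions stood apart in 11 of 28 pairs, for Cdkn1a in 5 and for Sesn1 in 0. The groups of 13 to 15 libraries were not tested for single outlying libraries.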

How the results depend on the processing

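Of 68 counts recomputed under alternatives, 59 stayed within 1.5 times the value reported and 9 moved. Of 684 single values, 666 stayed the same and 0 reversed. For tested values, the same means the same side of the threshold, and the same direction for log2 changes. For the described log2 changes of Cdkn1a and Ccng1 it means a shift smaller than the SD of the libraries. For a member's count of regions it means within 1.5 times the value reported. With at least 10 counts in every library, the count of higher tests of the other 8 members went from 22 to 9, fewer genes being tested, and that of the further targets from 12 to 5. The further targets had 17 higher and 1 lower call with no filter, and 18 and 3 by limma on the deposited transformed values, against 12 and 0. With punching date and plate as factors 1 further target was lower. Calls over all genes moved as well in these settings. In AMY, calls in either direction were 484 of 8611 genes in the setting reported. They were 292 of 5601 with at least 10 counts, 650 of 18836 with no filter and 683 of 12937 by limma. With punching date and plate as factors they were 584 of 8611. The cause of these changes was not tested. With the replicate number as a block, 23 tests of the 8 members (Btg2 in dDG gained, at 0.52 with adjusted p 0.0383) and 16 of the targets passed as higher and 1 target as lower, and with the animal as a replicate block 5 members passed the interaction; without the animal block 7 members passed the baseline comparison, as with it. With the replicate number as a block, calls over all genes also rose in every region but vCA1. In dDG they went from 316 to 543 of 8548 genes, and in vCA1 from 497 of 9126 to 439 of 9072. The interaction count fell from 4 to 2 with the oligodendrocyte covariates, a fit for which the share of all genes is not given. By Pearson's r, covariation with Cdkn1a passed for 2 members when centred within punching date (Trp53inp1 and Sesn1) and for 2 in dexamethasone animals alone (Trp53inp2 and Zmat3), against 1; by Spearman's rho 3 passed over all animals (Trp53inp1, Ccng1 and Trp53inp2), and the adjusted p of rho was not computed in the alternatives. On the deposited transformed scale the described log2 changes were smaller, at 1.52 for Cdkn1a in PFC and 1.57 for Ccng1 in CER. Depth limits Gadd45a and Pmaip1, which passed the filter on low counts in 1 and 3 of 8 regions.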

Other observations

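Of 9 relatives of the members, 1 rose in every region. Gadd45g, a relative of Gadd45a in stress signalling, rose in 8 of 8 regions, by 1.02 to 1.78 on the log2 scale (largest edgeR adjusted p 1.41e-07). In AMY it ranged from 13.6 to 32.7 CPM (median 20.1, n = 15) after vehicle and 29.8 to 72.3 CPM (median 47.3, n = 15) after dexamethasone. Gadd45b, Sesn2 and Btg3 did not pass the filter on low counts in any region. Ccng2, which encodes the related cyclin G2, was lower in dCA1 alone, at -0.34 ± 0.10 (edgeR adjusted p 0.0499), and its values over the 8 regions ran from -0.34 to -0.023. The p21 relatives Cdkn1b and Cdkn1c, the sestrin Sesn3 and Btg1 passed in 0 of 8, 0 of 3, 0 of 8 and 0 of 1 tested regions by edgeR, with 1, 0, 3 and 0 at an unadjusted p under 0.05. Over the 9 relatives 8 of 36 tests passed as higher, all of them of Gadd45g, and 1 as lower, with a median log2 value of -0.068, against 3.23% and 1.94% of all tests.

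Regulators of p53, among them Mdm4, Atm, Atr, Hipk2 and Usp7, gave 2 higher calls in 88 tests and 0 lower, with a median log2 value of 0.027, against 3.23% and 1.94% of all tests, so that the count is near the background. The 2 calls, named after their values were seen, were Ep300 in CER, at 0.30 ± 0.080 (edgeR adjusted p 0.0123), and Trp53bp1 in vCA1, at 0.29 ± 0.087 (adjusted p 0.0335). Of the further targets below the filter, Bbc3 passed as lower in 1 of 8 regions when no filter was used.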
